A study of Rattus norvegicus with 2 samples.

Results

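Probes named for olfactory, vomeronasal and taste receptor genes were followed on a mouse-named oligonucleotide array hybridised with rat liver cDNA. They are the library spots whose gene symbol begins with Olfr and a number, V1r, V2r, Tas1r or Tas2r. The rule found 196 of 21766 library spots, which carry 178 gene symbols. Of these, 157 spots with 139 symbols are Olfr, 30 are V1r, 3 are Tas1r, 6 are Tas2r and 0 are V2r. Receptors of the V2r family appear on the array under the later prefix Vmn2r, which the rule does not take, and their 17 probes are only set beside the members. The genes were taken as ones not expressed in liver. The intensities below do not bear out that name at the level of the probes, since most members were far brighter than empty spots. The members are therefore called receptor probes here. Whether the named transcripts were present in liver was not tested.

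Odorant receptors (Olfr), vomeronasal receptors of type 1 (V1r) and taste receptors are G-protein-coupled receptors at the surface of sensory cells. Olfr proteins sense airborne odorants in the main olfactory epithelium, where each neuron uses 1 receptor gene and signals through the G protein Gnal, the adenylyl cyclase Adcy3 and a cyclic-nucleotide-gated channel. V1r proteins sense small volatile cues in the vomeronasal organ through Gnai2 and the channel Trpc2. In taste cells Tas1r1 pairs with Tas1r3 to sense amino acids, Tas1r2 pairs with Tas1r3 to sense sugars, and Tas2r proteins sense bitter compounds, all through Plcb2, Itpr3 and Trpm5. Transcripts of single odorant and taste receptors have also been described outside the nose and tongue, including in gut, sperm and metabolic tissue.

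The liver came from adult male Wistar rats made diabetic with a single injection of streptozotocin, a toxin of pancreatic beta cells, at 65 mg/kg after a 12 h fast, and every rat of both treatments carried this lesion. Those whose glycaemia exceeded 200 mg/dl when measured 72 h later were given 7 days of γ-conglutin, a protein of lupin seeds, at 120 mg/kg in 0.9% NaCl, or of 0.9% NaCl alone as vehicle. For each treatment the RNA of 5 rats was combined into 1 pool, and both arrays carried the same pair of pools with the dyes exchanged. Array 1 (replicate 1) had vehicle in Alexa555 with γ-conglutin in Alexa647, and array 2 (replicate 2) had the dyes the other way round. A treatment is thus a single sample read on 2 technical repeats, and no spread over rats, and so no p-value, can be had for a difference between the pools. Whole liver was used, in which fewer cells of a type and less RNA per cell cannot be told apart.

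Each array held 23232 spots in 48 blocks, of which 231 were Gapdh control spots and 1235 were empty. Intensity is the mean brightness of a spot minus its local background, in the scanner's units. The 4 intensities of a probe are given in the order array 1 Alexa555 (vehicle), array 1 Alexa647 (γ-conglutin), array 2 Alexa555 (γ-conglutin) and array 2 Alexa647 (vehicle). The brightness of a probe is its mean log2 intensity over these 4 measurements, given as its percentile among the 21761 library probes. Brightness depends on the probe as well as on the transcript, so it does not rank transcripts. The number of arrays limits the precision of every value.

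Set against empty spots, the receptor probes as a group carried clear signal. Empty spots gauge background only, and whether that signal came from the named transcripts or from other bound cDNA was not tested. The median intensity of the 1235 empty spots was 4.66, 3.34, 6.56 and 3.85 in the 4 measurements, and that of the 196 receptor probes was 777, 558, 862 and 613. The receptor median was therefore 167, 167, 131 and 159 times the empty-spot median. Against all library probes, with medians of 1650, 1240, 1600 and 1130, the receptor probes were dimmer, and the library median exceeded theirs by 2.12, 2.22, 1.85 and 1.85 times. In both dyes and on both arrays the receptor median lay between that of empty spots and that of the library.

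A probe was counted as above empty spots where it exceeded their 95th percentile, which was 42.5, 30.1, 52.2 and 36.0 in the 4 measurements. Singly, 191, 182, 191 and 185 of the 196 receptor probes passed, while 94.7%, 94.3%, 95% and 94.4% of library probes did. In all 4 measurements 180 of 196 receptor probes passed (91.8%), against 94% of all library probes. The receptor share thus lay close to that of the whole library at this threshold. Of the other members, 5 passed in 3 measurements, 6 in 2, 2 in 1 and 3 in none. The 3 probes that passed in none were Olfr1507, V1rb8 and V1rd4. No receptor probe was saturated (0 of 196).

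By brightness, the receptor probes covered nearly the whole range of the array. Their median percentile was 35.3 (34.1 on array 1 and 35.8 on array 2, SD 1.21, n = 2 arrays), and single probes ran from 0.437 to 95.5. The upper part of the library held fewer of them, with 67 of 196 above the library median (34.2%) and 7 above percentile 90 (3.57%). In the dimmest 10% of the library lay 33 receptor probes (16.8%). With the brightest probe of each of the 178 symbols the median percentile was 35.9. The intensities of the 2 arrays followed each other closely across the 195 receptor probes that passed the filter on dim probes (r = 0.98 for the mean log2 intensity, a description across probes that share arrays, dyes and pools).

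**Figure D1:**
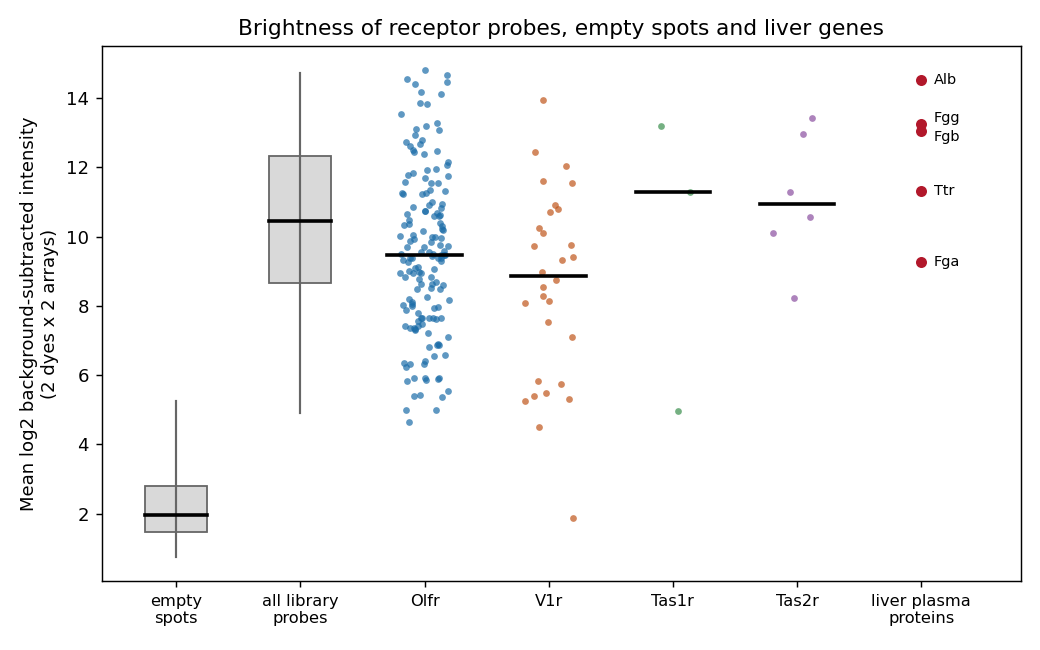
Mean log2 background-subtracted intensity over 2 dyes and 2 arrays (vertical axis) of empty spots and all library probes (box from the lower to the upper quartile, line from the 5th to the 95th percentile, bar at the median), of each receptor probe by family (points, bar at the family median) and of 5 liver plasma protein genes (red points). The 157 Olfr and 30 V1r probes spread over most of the range of the library, and only 1 of them, V1rd4, lies inside the box of the empty spots.

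The 5 liver plasma protein genes, which hepatocytes transcribe at high levels, overlapped with the receptor probes. Alb, the gene of serum albumin, had intensities of 19300, 20800, 24000 and 31200 (percentile 93.6), and 3 receptor probes were brighter. On array 1 alone 6 receptor probes exceeded Alb, and on array 2 alone 0 did. Fgb and Fgg, which encode the fibrinogen beta and gamma chains, stood at percentiles 81.9 and 83.5, with 17 and 13 receptor probes above them. Ttr, the gene of the thyroid hormone and retinol carrier transthyretin, had 4110, 3690, 1820 and 1550 (percentile 62.5), and 43 receptor probes exceeded it. Fga, which encodes the alpha chain of the same fibrinogen molecule as Fgb and Fgg, had 694, 537, 743 and 505 (percentile 32.4). Brighter than Fga were 109 of the 196 receptor probes (55.6%). The median percentile of the 5 genes was 81.9, but their own range covered most of the range of the receptor probes.

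A wider list of liver plasma protein genes stood lower than those 5. Its 39 measured genes of 40 listed had a median percentile of 51.4, near the library median. The brightest was Itih3, an inter-alpha-trypsin inhibitor heavy chain, at 95.4. The dimmest was Itih4, of the same family, at 1.39, with intensities of 6.49, 2.08, 7.33 and 6.48 that were not above empty spots in any measurement. Since brightness depends on the probe, these percentiles give no firm check of the labelled tissue.

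The odorant receptor probes had a median percentile of 35.3. Above empty spots in all 4 measurements were 148 of 157 (94.3%), against 94% of all library probes. The brightest was a probe under the symbol Olfr101, with 33900, 27000, 25600 and 28700 (percentile 95.5). Its description in the deposited table names a pseudogene of the MHC class I gene H-2M3, not an odorant receptor, so its value does not belong to Olfr101 by that description. Next came Olfr480 with 29900, 25000, 28100 and 21900 (percentile 94.6) and Olfr145 with 26500, 25800, 24700 and 19000 (percentile 93.7). Both were brighter than Alb in both dyes on array 1 and not on array 2 in Alexa647. At the other end Olfr1507, known in mice as MOR28 and studied as a model of receptor choice, had 34.3, 13.8, 51 and 16, below the empty-spot threshold throughout. Olfr403 had 55.2, 24.5, 38.8 and 19.0 and passed the threshold only in Alexa555 of array 1.

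Some odorant receptors are named here for their known biology, chosen after their values were seen. Olfr544, described in mice as a receptor for azelaic acid in liver and fat cells, had 274, 183, 439 and 221 (percentile 18.1). It was above empty spots in every measurement but dimmer than 138 of the other receptor probes. Olfr16, known as MOR23 and described in sperm and muscle cells of mice, had 483, 440, 617 and 469 (percentile 28.6). Olfr73, the mouse eugenol receptor, had 458, 324, 1010 and 662 (percentile 30.9) and was brighter on array 2 in both dyes. Olfr160 (M72) and Olfr17 (P2), both used to trace receptor neurons to their glomeruli in mice, stood at percentiles 26.2 and 5.57. Olfr17 had 74.4, 24.1, 94.4 and 20.7, so that it passed the empty-spot threshold in Alexa555 and not in Alexa647 on both arrays. All 5 of these probes were below the library median.

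The 10 probes of Olfr64 to Olfr69, which in mice flank the beta-globin locus, had a median percentile of 67.9, and 7 of them were above the library median. This group was also picked after its values were seen. Olfr66 led it with 20600, 20100, 27500 and 19600 (percentile 92.7). The spread within the group was wide, from percentile 7.43 for 1 of the Olfr69 probes.

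For 10 Olfr symbols the array held more than 1 probe, 28 in all, and their brightness differed greatly within a symbol. The brightest and dimmest probe of a symbol differed by a median of 4.7-fold, from 1.07-fold for Olfr6 to 339-fold for Olfr101, and by more than 2-fold for 8 of the 10. The 5 Olfr101 probes come from 1 genomic clone of the mouse MHC region. Of these, 2 are described as MHC class I pseudogenes, at percentiles 95.5 and 22.8. The other 3 stood at 7.51, 14.5 and 37.0, and that at 14.5 is also annotated as a pseudogene. Without the 2 MHC-described probes the range of the symbol was narrower.

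Several other symbols, with no such description, also spanned a wide range. The 4 probes of Olfr69 lay between percentiles 7.43 and 82.3, 108-fold apart, with 117, 59.0, 111 and 58.9 for the dimmest and 9420, 8680, 9900 and 7520 for the brightest. Olfr708 spanned 18.7-fold over 3 probes (percentiles 6.42 to 45.7). Olfr2, the receptor known as I7 that responds to octanal, spanned 11.5-fold over 3 probes, at percentiles 7.08, 14.4 and 39.8. Within Olfr7 the 3 probes stayed within 2.01-fold. A single probe thus gave no stable level for most of these genes, and whether the named transcript was the source of a probe's signal was not tested.

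**Figure D2:**
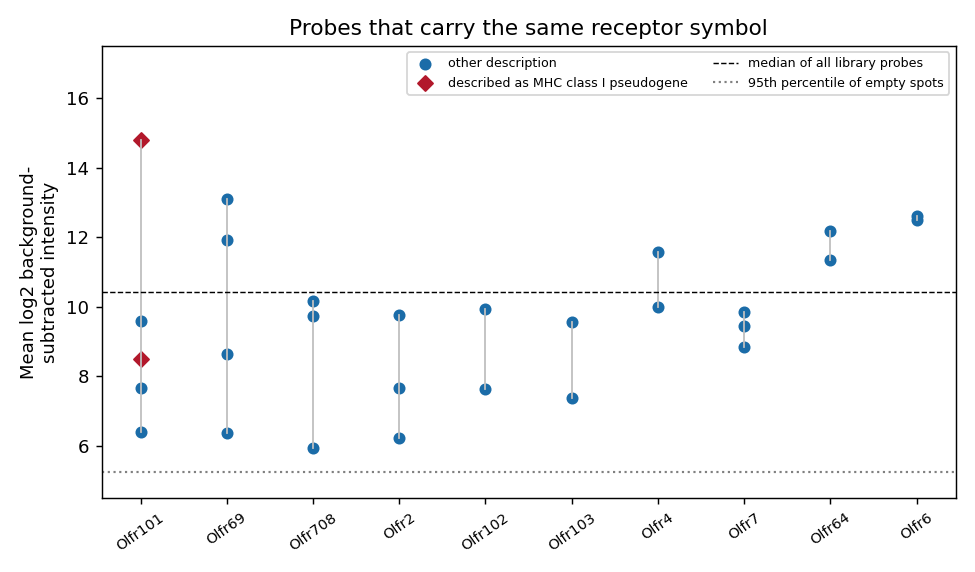
Mean log2 background-subtracted intensity (vertical axis) of every probe of the 10 receptor symbols that have several probes, ordered by their range. Red diamonds are 2 Olfr101 probes described as MHC class I pseudogenes, blue points are the other probes, and lines mark the median of all library probes and the 95th percentile of empty spots. Olfr101 and Olfr69 span 339-fold and 108-fold, and Olfr6 only 1.07-fold.

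Brightness was also read by the kind of annotation. The 44 receptor probes with a RefSeq accession had a median percentile of 39.4, and the 152 with another accession 34.7. The 7 probes whose description or symbol marks a pseudogene had 22.8, and 2 of these are the Olfr101 probes described as MHC class I pseudogenes. Of the 178 symbols, 9 were current rat symbols in the RefSeq gene table used here, namely all 3 Tas1r and all 6 Tas2r, and 14 more were older rat names (4 Olfr and 10 V1r). For the rest the mouse name was the only one at hand.

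The V1r probes had a median percentile of 27.4. Above empty spots in all 4 measurements were 24 of 30 (80%), a lower share than the 94% of all library probes. By subfamily, the 7 V1ra probes had a median of 65.5 with 5 above the library median, the 6 V1rb probes 24.7, the 9 V1rc probes 10.7 and the 8 V1rd probes 24.6. These subfamilies were set apart after the values were seen. The 3 brightest V1r probes were all V1ra. V1ra9 had 18400, 14700, 13900 and 15800 (percentile 89.2), V1ra6 had 9620, 8300, 4050 and 2980 (76.1), and V1ra2 had 3950, 3800, 5400 and 3740 (71.5). V1ra6 was 2.57-fold dimmer on array 2, in both dyes, while V1ra9 and V1ra2 stayed within 2-fold between arrays.

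The dimmest receptor probe of all was V1rd4, with 5.14, 3.08, 3.43 and 3.29, at the level of the empty-spot medians. V1rb8 followed among the V1r probes with 25.6, 14.3, 32.9 and 21.8. V1rb2, a mouse receptor for 2-heptanone, named for its known ligand after its value was seen, had 309, 272, 373 and 297 (percentile 20.4). The 17 Vmn2r probes outside the rule had a median percentile of 38.1 (35.2 on array 1 and 50.5 on array 2). Of them 14 were above empty spots in all 4 measurements (82.4%, against 94% of all library probes). They ran from percentile 0.244 to 94.8. In the dimmest 10% of the library lay 29.4% of them, against 16.8% of the members.

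The taste receptor probes were few and brighter at the median, at percentile 62.0 for Tas1r and 57.1 for Tas2r. The Tas1r median is that of 3 probes and counts Tas1r3 (percentile 5.05), whose level was not usable. Tas1r2, the sweet receptor subunit, had 10100, 7480, 10500 and 9480 (percentile 83.0). Tas1r1, the umami subunit, had 3810, 3330, 1970 and 1540 (percentile 62.0) and was 2.05-fold dimmer on array 2. Tas1r3, which both pairs share, had 1.03, 0.828, 1150 and 813. It was at background in both dyes on array 1 and well above empty spots in both dyes on array 2, and no fold is given since the values on array 1 were not above background. Since the pools were the same on both arrays, that probe gives no usable level, and it was the 1 receptor probe removed by the filter on dim probes.

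All 6 bitter receptor probes were above empty spots in every measurement, against 94% of all library probes. Tas2r119 was the brightest with 12700, 10300, 12900 and 8860 (percentile 85.2). Tas2r140 followed with 6900, 6460, 10300 and 9110 (81.3). Tas2r105, which responds to cycloheximide in mice, had 3300, 2900, 2010 and 2070 (62.2). Tas2r108, named after its value was seen and known in mice for its response to denatonium, had 2040, 1620, 1470 and 1100 (52.1). The lowest were Tas2r116, at percentile 44.9, and Tas2r103, with 363, 205, 453 and 242 (19.9).

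The proteins that the receptors signal through were read from lists, of which only part was on the array. Of 17 olfactory transduction genes 6 were measured, with a median percentile of 10.9. Of these 6, 4 were above empty spots in all 4 measurements (66.7%, against 94% of all library probes). Gnal, the olfactory G protein alpha subunit, was the brightest at 56.0 with 1880, 1400, 2520 and 1720, and the phosphodiesterase gene Pde1c the dimmest at 2.31 with 6.91, 5.65, 7.64 and 4.94. The vomeronasal list (5 of 12 measured) had a median of 71.2, from Trpc2 at 55.2 to H2-M10.1, an MHC class I gene of vomeronasal neurons, at 78.2. The taste list (5 of 9 measured) had 49.6, from the G protein subunit gene Gnb3 at 30.1 to the calcium channel gene Itpr3 at 71.8. The vomeronasal and taste lists also hold genes used in many tissues, such as B2m, Gnai2 and Itpr3. All 5 genes of each list were above empty spots in all 4 measurements, against 94% of all library probes. Trpc2, the channel of vomeronasal neurons, had 2270, 1340, 2440 and 1320.

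Other lists of genes set beside the receptors gave a like spread. Of 15 trace amine-associated receptors 1 was measured, Taar1, and with 46100, 33900, 32300 and 29300 (percentile 97.2) it was brighter than all 196 receptor probes. Retinal photoreceptor genes (17 of 19 measured) had a median percentile of 39.4, from the disc protein gene Prph2 at 6.64 to the cone channel gene Cnga3 at 97.7. The 14 sperm genes had 51.7, from the tail protein gene Odf2 at 2.38 to the transition protein gene Tnp2 at 99.2, with intensities of 36800, 52000, 40400 and 51800.

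Markers of other cells found in liver ranged as widely. Macrophage and Kupffer cell genes (9 of 12 measured) had a median percentile of 45.4. The brightest was Lyz1 at 83.2, while Lyz2, another lysozyme gene of the list, stood at 12.5. The dimmest was Emr1, the gene of the F4/80 antigen, at 6.70. Endothelial genes (7 of 9) had 22.7, with Oit3 at 87.3 and Eng at 2.29. Cholangiocyte genes (7 of 7) had 39.8, with Muc1 at 94.6 and Spp1 at 5.17. Stellate cell and fibroblast genes (9 of 9) had 65.6, with Acta2 at 96.0 and Col1a1 at 1.46, and erythroid genes (5 of 6) 32.8, with Hba-a1 the brightest at 64.6. The medians of the receptor probes and of the retinal list lay inside the range of these liver lists.

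**Figure D3:**
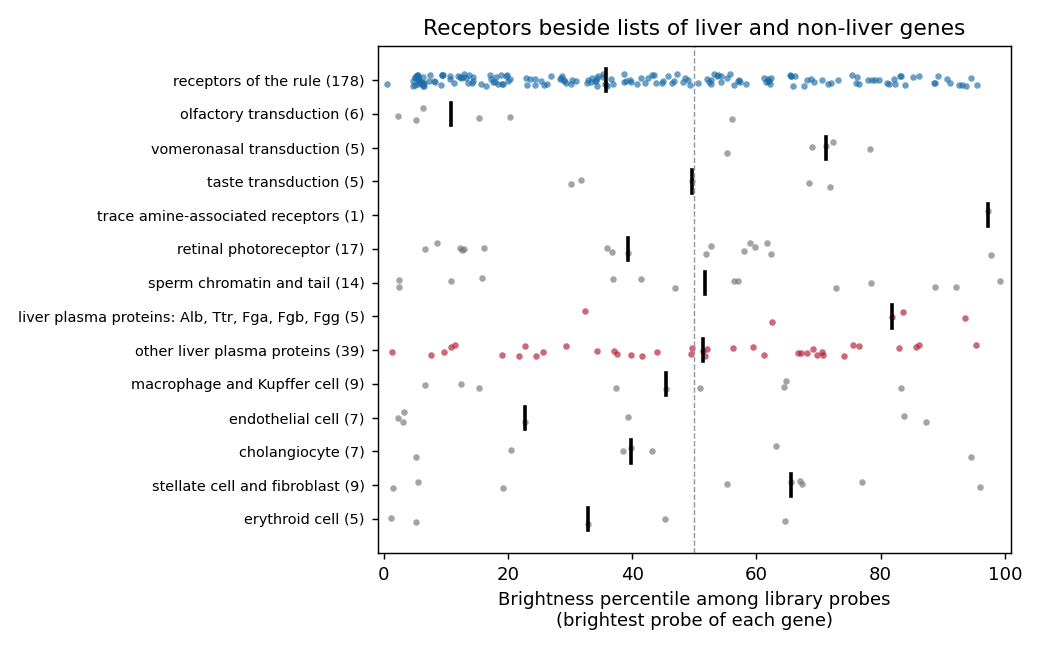
Brightness percentile among library probes (horizontal axis) of the brightest probe of each gene, for the 178 receptor symbols and 13 lists of genes, with the number measured in brackets. Points are genes, black bars list medians, and the dashed line is the library median. The receptor median of 35.9 lies above that of olfactory transduction genes (10.9) and below that of the 5 liver plasma protein genes (81.9), and the larger lists spread over most of the range.

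The second comparison asks whether receptor probes differed between the γ-conglutin pool and the vehicle pool. Ratios are log2 values of γ-conglutin over vehicle after correction of the background and of the dye trend, given for array 1, then array 2, or as their mean ± SD over the 2 arrays. Because the dyes were exchanged, a probe's preference for a dye widens that SD, and the direction rests on the dye labels. Of 195 receptor probes tested, 0 were at least 1.5-fold higher and 0 at least 1.5-fold lower with γ-conglutin on both arrays, as were 0 (0%) of all 21702 probes tested in each direction. The count over all probes depended on the background correction: with plain subtraction 33 were higher and 24 lower, and with the deposited net intensities 32 and 21, while the receptor counts were 0 in both. At the smaller size of 0.32 on the log2 scale, 0 receptor probes were higher and 0 lower, against 0.00461% and 0.304% of all probes. With so few such probes on the whole array, counts of 0 among 195 say nothing particular about the receptors. The median ratio was 0.0091 for receptor probes and 0.0066 for all probes, with family medians of 0.02 for Olfr, -0.0019 for V1r and -0.02 for Tas2r. Over members the mean ratio ran from -0.49 to 0.23.

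Most receptor probes turned sign between the arrays. The arrays gave 1 sign for 45 of 195 (23.1%), 20 positive and 25 negative, and for 32.7% of all probes, 16.6% positive and 16.1% negative. Turned to γ-conglutin over vehicle, the ratios of the 2 arrays had a Pearson r of -0.56 and a Spearman rho of -0.61 across the 195 receptor probes, and an r of -0.44 across all probes. With median centring these were -0.65 for receptor probes and -0.68 for all probes, so their order was not stable. These correlations describe probes that share pools, arrays and dyes. Alexa555 was the brighter dye on both arrays for 95 receptor probes (48.7%), against 34.6% of all probes, and Alexa647 for 55 (28.2%), against 32.7%. The lean to Alexa555 was in the Olfr probes, with 81 brighter in Alexa555 and 40 in Alexa647 on both arrays, while V1r had 11 and 11 and Tas2r 3 and 3; whether the families differ was not tested. The median log2 ratio of Alexa647 over Alexa555 was -0.06 for receptor probes and -0.0022 for all probes.

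The lowest mean ratios belonged to 4 odorant receptor probes, and in each the second array carried most of the difference. Olfr378, with 6950, 5050, 4780 and 6370, had -0.20 and -0.78 (mean -0.49 ± 0.41). Olfr143, with 11100, 9400, 5000 and 7270, had -0.08 and -0.89 (mean -0.48 ± 0.57). Olfr701, with 19400, 16700, 6770 and 9250, had -0.20 and -0.74 (mean -0.47 ± 0.38), and its probe was also 2.28-fold dimmer on array 2. Olfr749, with 23300, 21500, 13200 and 18400, had -0.17 and -0.59 (mean -0.38 ± 0.30). Each had a negative ratio on both arrays, but the first array alone was far from the 1.5-fold size.

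The highest mean ratios were smaller, and only V1ra2 had a positive ratio on both arrays. The dimmest Olfr101 probe, with 111, 71.8, 136 and 46.3, had -0.11 and 0.57 (mean 0.23 ± 0.48). Olfr66 had -0.06 and 0.51 (mean 0.22 ± 0.40). V1ra2 had 0.26 and 0.12 (mean 0.19 ± 0.10), and its mean fell to 0.09 with the deposited net intensities. Olfr9, with 12600, 7110, 14600 and 6130, had -0.64 and 0.99 (mean 0.18 ± 1.15), so its 2 arrays opposed each other. In Olfr9 the brighter value on each array was that in Alexa555, whichever pool carried the dye.

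Olfr9 was the 1 receptor probe with a dye difference of at least 1.5-fold on both arrays, 0.513% of the members against 36 (0.166%) of all probes. That comparison turned with the processing: median centring gave 0 receptor probes and 530 of all probes, and plain subtraction 3 and 164. At 0.32 on the log2 scale 7 receptor probes had such a dye difference (3.59%), close to the 3.42% of all probes. On single arrays, 1 receptor probe was at least 1.5-fold higher and 1 lower on array 1, against 0.295% and 0.682% of all probes. On array 2 alone 2 were higher and 6 lower, against 0.622% and 2.39% of all probes. None of these receptor probes passed in the same direction on both arrays.

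Among the taste receptors, Tas1r2 had ratios of -0.24 and -0.09 (mean -0.17 ± 0.11) and Tas1r1 of 0.13 and -0.14. For 0 of the 6 Tas2r probes did the 2 arrays give 1 sign, from Tas2r105 with 0.15 and -0.52 to Tas2r119 with -0.16 and 0.32. V1ra9 was the V1r probe with the lowest mean, with -0.28 and -0.31 (mean -0.29 ± 0.02), and it was below 1.5-fold on each array. Olfr544 had -0.10 and 0.35. All 5 genes of the taste transduction list had the same sign on both arrays, 3 positive and 2 negative, against 32.7% of all probes, and none exceeded 0.19 on either array. This was the highest share of the 13 lists, but it was picked after the values were seen and rests on 5 genes. Gnb3 had only -0.04 and -0.01, and Trpm5 0.05 and 0.02. In the vomeronasal list 2 of 5 had the same sign, in the olfactory list 3 of 6, in the retinal list 2 of 17 and in the sperm list 4 of 14. Among the lists of liver genes and cells the share ran from 14.3% (endothelial) to 60% (erythroid). Beside them the liver genes had mean ratios of -0.10 ± 0.27 for Alb, -0.05 ± 0.30 for Ttr, 0.03 ± 0.03 for Fga, 0.16 ± 0.51 for Fgb and -0.08 ± 0.33 for Fgg. The median ratios of the 13 lists lay between -0.21, for Taar1 alone, and 0.03.

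**Figure D4:**
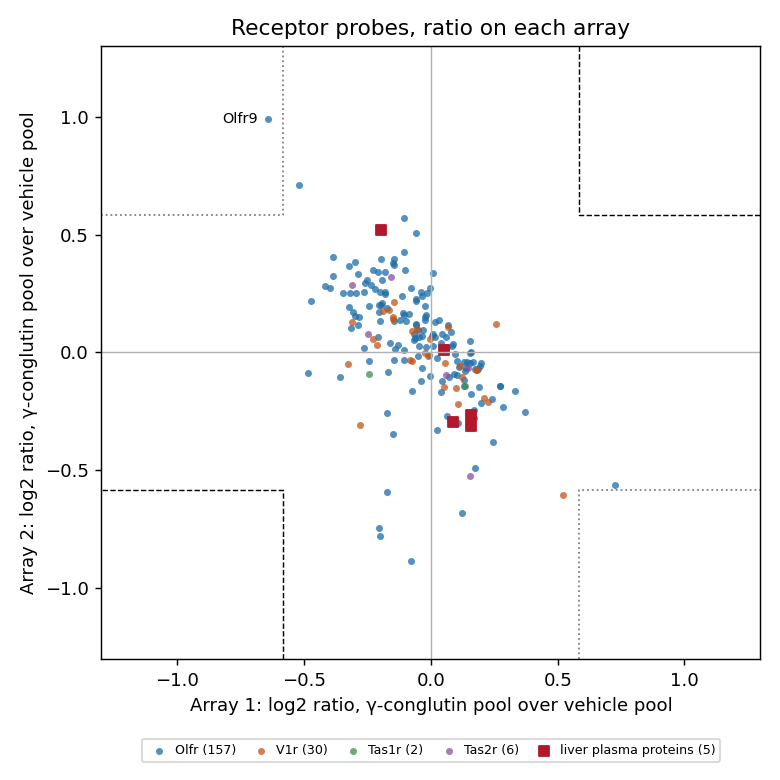
Log2 ratio of γ-conglutin over vehicle on array 1 (horizontal axis) and array 2 (vertical axis) for 195 receptor probes by family and for 5 liver plasma protein genes. Dashed corners mark at least 1.5-fold in the same direction on both arrays and hold 0 probes, and dotted corners mark at least 1.5-fold by dye and hold 1 probe, Olfr9. Most points lie along the falling diagonal (r = -0.56).

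Between the arrays the mean log2 intensity differed by more than 2-fold for 11 receptor probes (5.61%), near the 4.93% of all library probes. Dimmer on array 2 were Olfr138, V1ra6, V1rb10, Olfr701, Tas1r1 and Olfr74, by 2.03-fold to 2.59-fold. Brighter on array 2 were 1 Olfr101 probe, Olfr73, Olfr30 and V1rd7, by 2.03-fold to 2.52-fold, and Tas1r3, whose values on array 1 were at background. Both arrays carried the same pools, so these differences are between hybridisations.

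Brightness and dye ratio were also read by position on the array. Each block has 22 grid rows, and receptor probes lay mainly in the same few rows of the blocks: 74 Olfr probes in row 7, 68 in row 8, and 27 V1r probes among the 36 members in row 11. In row 7 the median percentile was 29.0 for receptor probes and 34.0 for the 947 other probes. In row 8 it was 40.1 against 49.4, and in row 11 it was 30.0 against 52.2. The median log2 dye ratio, Alexa647 over Alexa555, was -0.13 for receptor probes and -0.03 for other probes in row 7, -0.04 and -0.01 in row 8, and -0.03 and -0.0050 in row 11. In row 6, with 7 members, it was 0.08 and -0.0054. Receptor probes were dimmer at the median than the other probes of rows 7, 8 and 11, with the widest gap in row 11, and the part of position in their brightness was not tested.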

How the data were processed

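The deposited array tables hold 1 line per spot. Per the file headers, they list in each dye a mean raw intensity, a mean local background intensity, its SD and the authors' net intensity, and then the ratio of net intensities, Alexa555 over Alexa647. The deposited series value table held log2 of that ratio, with column medians of -0.0008 and 0.02. For the scanner and its software nothing is given in the sources used here. The main values start from the raw and background intensities.

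Brightness used the intensity minus background, with a floor of 1. For ratios, background was corrected by normexp (offset 50) and each array by global loess on library spots, in limma 3.58.1 under R 4.3.3. Spots with the same accession and description were averaged (5 merged). The filter kept probes above background by 2 SD in at least 1 dye of both arrays, 21702 tested and 59 removed. The 2 SD rule was lax, since 49.2% to 77.5% of empty spots passed it, so the empty-spot threshold is given too. Median backgrounds were 37.4 to 48.2. The dye labels set the sign. A gene on a list takes its brightest probe.

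Members, lists and rules were chosen with earlier results of these data known. Named were every Tas1r, the 5 liver genes, the 3 brightest and 2 dimmest probes per family, the 4 highest and 4 lowest ratios, probes past the size rules, up to 5 symbols with several probes and the extremes of each list; other names are marked as chosen later. A gene that this rule takes is not reported here. The ratio steps were tested on 200 library spots, brighter than 200 in every measurement, whose intensities were changed by known folds. Dimmer probes, the counts on both arrays and the empty-spot threshold were not part of that test. Alternatives covered background correction, normalization, filters, size rules, empty-spot thresholds and each array alone. Python 3.11.15 made the summaries.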

Additional observations from a re-analysis of the deposited data

How the results depend on the processing

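Of 88 recomputed summary values 69 kept their direction and size and 19 moved. The counts of receptor probes at least 1.5-fold higher or lower with γ-conglutin on both arrays were 0 under every alternative with both arrays. On single arrays they were 1 to 2 higher and 1 to 6 lower. The count with 1 dye at least 1.5-fold brighter on both arrays was 1, and it was 3 with plain background subtraction, 2 with no background subtraction, 2 with the deposited net intensities, 0 with median centring, 0 with loess within print-tip blocks, 7 at a log2 size of 0.32 and 0 at 2-fold. Over all probes that count was 36, with 164, 51, 140, 530, 17, 742 and 0 under the same alternatives. The median dye ratio of -0.0567 was -0.0625 with deposited net intensities, -0.0674 with median centring, -0.0655 with print-tip loess and -0.0409 among probes above empty spots in all measurements, and -0.0566 to -0.0537 on single arrays. The median ratio was 0.0077 to 0.0217 with both arrays, and -0.0537 to 0.0566 on single arrays. The median percentile of receptor probes was 34.1 to 35.8 on single arrays and 35.3 under each other intensity. That of the 5 liver genes was 81.6 with deposited net intensities and 81.6 to 81.9 on single arrays. The 180 receptor probes above empty spots became 138 at the 99th percentile. At the median plus 3 SD, with the SD taken from the median absolute deviation, they became 194. Without the 2 MHC-described probes, an alternative chosen after seeing the data, they were 178. That count follows directly, because both of those probes had passed in all 4 measurements. The shares of all library probes at the other thresholds are not given here. The closeness of the receptor share to the library is therefore stated for the 95th percentile only. The array correlation ran from -0.65 to -0.49 across receptor probes and from -0.68 to -0.25 across all probes. Of 395 recomputed ratios of single named probes 373 stayed within the spread and 22 moved. Those that moved include V1ra2, from 0.19 to 0.09, and V1ra9, from -0.29 to -0.36, both with the deposited net intensities. No paired analysis was possible because both arrays carry the same pair of pools and belong to 1 group. The cause of these shifts was not tested. With 1 pool per treatment, nothing here measures the spread over rats.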
